A study of Mus musculus with 6 samples.

Results

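A set of 10 genes that mark or maintain the naive state of mouse embryonic stem cells was followed after REST knockdown. They were Klf2, Klf4, Klf5, Esrrb, Tbx3, Tcfcp2l1, Zfp42, Nr0b1, Fbxo15 and Dppa3, taken as a list of known genes with every probe that the array annotation gives them. The array held 13 probes for 9 of these 10 genes, out of 25697 probes and 16593 named genes, and no probe carried the name of Tcfcp2l1 (now Tfcp2l1). Signal was high enough for a test in 8 of them.

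The cells were of the E14 mouse embryonic stem cell line. In 3 samples the cells carried a REST shRNA for 72 h, a hairpin RNA that lowers the transcript it matches, and 3 controls carried the pSuper vector for the same 72 h. Both groups therefore share the time, while the sample labels name the vector only for the controls. REST is a repressor that keeps many neuronal genes silent outside neurons. The sources used here do not give the number of hairpins, the selection of carrier cells or the culture medium. Nor do they say whether replicates came from different cultures, so the p-values rest on a spread between samples that may be only technical.

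Naive pluripotency is the ground state of the early epiblast, held in culture by LIF and by a set of transcription factors that activate each other and themselves. Esrrb, an orphan nuclear receptor, and the Kruppel-like factors Klf2, Klf4 and Klf5 stand at its centre, with Tbx3, a T-box factor, and Tfcp2l1, a grainyhead-related factor, downstream of LIF and other signals. Zfp42 (also called Rex1), the F-box gene Fbxo15 and Dppa3 (also called Stella) are used as readouts of the state, and reporters at the first of these separate naive from departing cells.

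The data were Illumina bead-array intensities, in which 0 is the background of each array. Mean intensity per array was 442 to 444 in REST shRNA cells and 442 to 473 in control cells, and 46.4% to 49.0% of probes lay above background. Across tested probes, the correlation was 0.992 to 0.994 within groups and 0.970 to 0.983 between them. Rest could not serve as a check of the knockdown, because its probe was above background on none of the 6 arrays. All 8 embryonic stem cell markers that were listed for this purpose were above background on every array.

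Of the 8 naive genes tested, 4 rose in REST shRNA cells, none fell and 4 were not called. The risers were Fbxo15 (1.83-fold), Zfp42 (1.58-fold), Dppa3 (1.58-fold) and, at the edge of the threshold, Klf5 (1.24-fold). Klf2, Klf4, Esrrb and Tbx3 did not pass the test, and the 95% intervals at their brightest probes reached from 0.76 to 1.33 times the control level. Among all 12406 tested probes 12.8% were called higher and 13.1% lower, at an adjusted p under 0.05 in limma. Counted over genes, 13.9% of 8740 rose and 13.1% fell. The median log2 change was 0.21 over the 8 naive genes and 0.00 over all tested genes. The genes were listed with earlier results of these data known, so these counts are a description of the list.

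One of the risers, Zfp42, has a promoter window in the RefSeq table (GRCm38.p6), from 250 bases before to 50 bases after the annotated start. It is shown beside that of Klf2, which was not called. Both lie on chromosome 8, Zfp42 on the minus strand at chr8:43306960-43307259 and Klf2 on the plus strand at chr8:72318812-72319111. Capitals mark the octamer ATTTGCAT, the element read by POU factors, and a match on the opposite strand to the KLF-like motif GGGTGTGG.
Zfp42: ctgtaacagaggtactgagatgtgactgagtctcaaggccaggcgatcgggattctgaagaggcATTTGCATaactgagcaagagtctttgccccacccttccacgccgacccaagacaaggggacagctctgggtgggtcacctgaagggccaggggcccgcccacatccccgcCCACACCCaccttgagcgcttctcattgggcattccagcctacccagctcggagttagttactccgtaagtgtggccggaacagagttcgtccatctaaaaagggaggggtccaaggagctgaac
Klf2: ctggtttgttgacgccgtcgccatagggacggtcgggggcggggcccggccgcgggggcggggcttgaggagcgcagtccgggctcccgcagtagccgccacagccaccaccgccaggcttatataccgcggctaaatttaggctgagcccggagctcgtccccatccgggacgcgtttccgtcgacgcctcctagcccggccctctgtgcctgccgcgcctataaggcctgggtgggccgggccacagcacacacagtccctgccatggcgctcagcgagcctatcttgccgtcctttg

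In all, 6 of the 10 genes had a window in that table, with 7 windows between them. The Zfp42 window held both marked elements, and the octamer was searched for after the sequence had been seen. None of the other 6 windows held either. Of all 32851 windows, searched on both strands, 1.74% hold the octamer and 3.56% the KLF-like motif. The left and right parts of the REST element, TTCAGCACC and GGACAGCGC, and the ESRRB-like motif TCAAGGTCA had no match in the 7 windows, against 0.371%, 0.405% and 0.423% of all windows. A match or its lack describes these letters in this window only.

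Fbxo15 encodes an F-box protein that embryonic stem cells can do without, and its promoter drove early reprogramming reporters. Its intensities were 8500.2, 8972.7 and 9389 in the 3 REST shRNA samples, against 5461.2, 4513.4 and 5193.9 in the 3 controls. The groups were far apart relative to their spread. On the normalized log2 scale the means were 13.16 ± 0.06 in REST shRNA and 12.29 ± 0.12 in control cells (SD, n = 3 each), a change of 0.88 ± 0.11 (SE; adjusted p = 0.00112). A change of this size or more was reached by 2.32% of tested probes.

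Zfp42, a zinc finger gene that falls early when cells leave the naive state, had intensities of 3669, 3434.8 and 3187.2 in REST shRNA cells and of 2365.3, 1829 and 2295.8 in control cells. Every knockdown array was above every control array. The normalized log2 level was 11.76 ± 0.10 in REST shRNA and 11.10 ± 0.15 in control cells (SD, n = 3 each), a change of 0.66 ± 0.12 (SE; adjusted p = 0.00484). Its 95% confidence interval ran from 1.31-fold to 1.90-fold.

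Dppa3, a maternal and germ cell factor that protects 5-methylcytosine in the zygote and is patchy in embryonic stem cell cultures, was dimmer. It measured 483.5, 460.7 and 553 in REST shRNA cells, against 295.6, 293.4 and 315.2 in controls. The lowest knockdown array was well above the highest control. The log2 change was 0.66 ± 0.11 (SE, n = 3; adjusted p = 0.00428), the same size as that of Zfp42. Because the culture was measured in bulk, more cells that express these genes cannot be told apart from more RNA in each cell.

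Klf5, which acts in the inner cell mass and the trophectoderm, changed less. Its probe gave 4929, 5238.5 and 5331.1 in REST shRNA cells and 4472.5, 3908.5 and 4296.8 in control cells. The groups did not overlap, and 21.3% of all tested probes likewise had every knockdown array above every control array. The log2 change of 0.31 ± 0.10 (SE, n = 3) gave an adjusted p of 0.0473. This call was lost without any 1 of the 6 arrays (adjusted p = 0.0663 to 0.131), with median scaling (0.116), without background correction (0.0558) and with the replicate number as a block (0.0825), so that 3 naive genes were then higher. The direction was the same in all 16 alternatives.

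**Figure D1:**
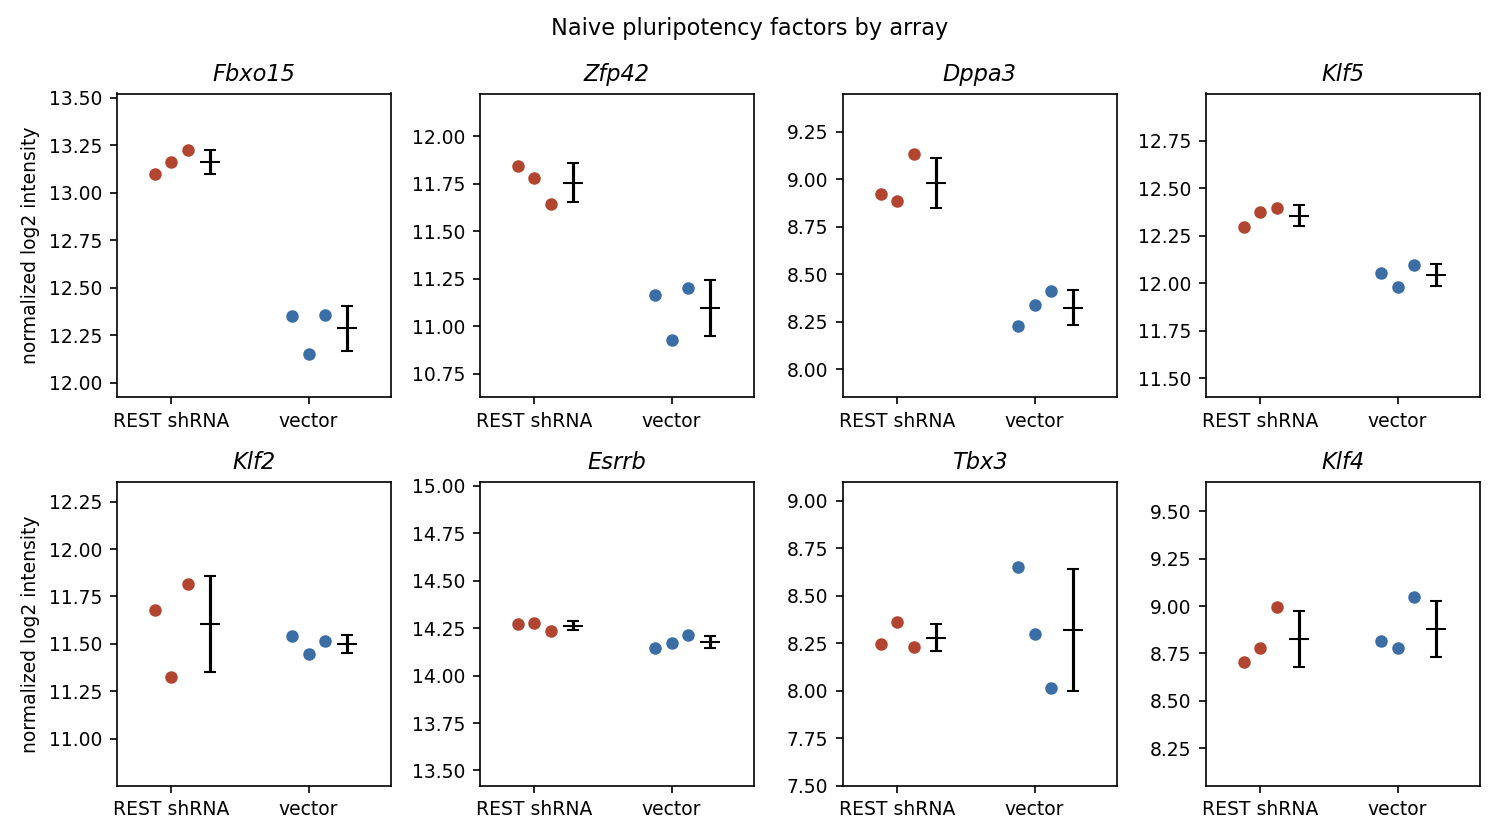
Normalized log2 intensity (y axis) of the 8 tested naive genes on each array, with 3 REST shRNA arrays in red and 3 vector arrays in blue, and black bars for the mean and SD of each group. Each panel spans the same height on the log2 scale around its own middle. The groups are apart for Fbxo15, Zfp42, Dppa3 and Klf5, nearly touch for Esrrb and overlap for Klf2, Tbx3 and Klf4.

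Esrrb binds much of the naive enhancer network and is a target of Nanog and of the Wnt arm of the circuit. Its intensities were 19284.1, 18913.2 and 18399.8 in REST shRNA cells, against 19456.5, 19470.6 and 19242.1 in controls. Before normalization the knockdown values were thus slightly lower and overlapped the controls, while after quantile normalization each knockdown array was slightly higher. The normalized change was 0.09 ± 0.10 on the log2 scale (SE, n = 3; adjusted p = 0.551), and -0.07 with median scaling. The 95% interval went from 0.91-fold to 1.23-fold.

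The other Kruppel-like factors of the group gave no call. Klf2, the family member most restricted to the naive state, measured 3242.9, 2511.5 and 3596.9 in REST shRNA cells and 3119.7, 2718.1 and 2837.1 in control cells. Its knockdown arrays spread widely and enclosed the controls (log2 change 0.10 ± 0.14, SE, n = 3; adjusted p = 0.613). Klf4, a target of STAT3, had 3 probes. At the brightest it measured 409.8, 425.6 and 499.7 in REST shRNA cells, against 457.5, 400.6 and 498.1 in controls. The groups overlapped at all 3 probes, with log2 changes of -0.05 ± 0.12, 0.10 ± 0.12 and -0.01 ± 0.16 (SE, n = 3), none of them called.

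Tbx3, which can hold the naive network up and also acts in endoderm entry, was likewise not called. At its brightest probe it gave 294, 312 and 288.8 in REST shRNA cells and 407.1, 283.5 and 233.9 in controls. Here the controls were spread, and the knockdown arrays lay inside their range. The 3 probes had log2 changes of -0.04, -0.03 and -0.21, with adjusted p-values of 0.869, 0.897 and 0.347. Without control replicate 1, the brightest of the controls, the change at the brightest probe was 0.12 (adjusted p = 0.550). Without control replicate 3, the dimmest, it was -0.20 (adjusted p = 0.350).

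Nr0b1 (Dax1), an orphan receptor that binds and restrains other pluripotency factors, was not measurable. Its probe gave 10.2, 5.2 and 5.9 in REST shRNA cells, with no array above background, and 16.3, 8.3 and 13.9 in controls, with 1 array above background. No fold is given.

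**Figure D2:**
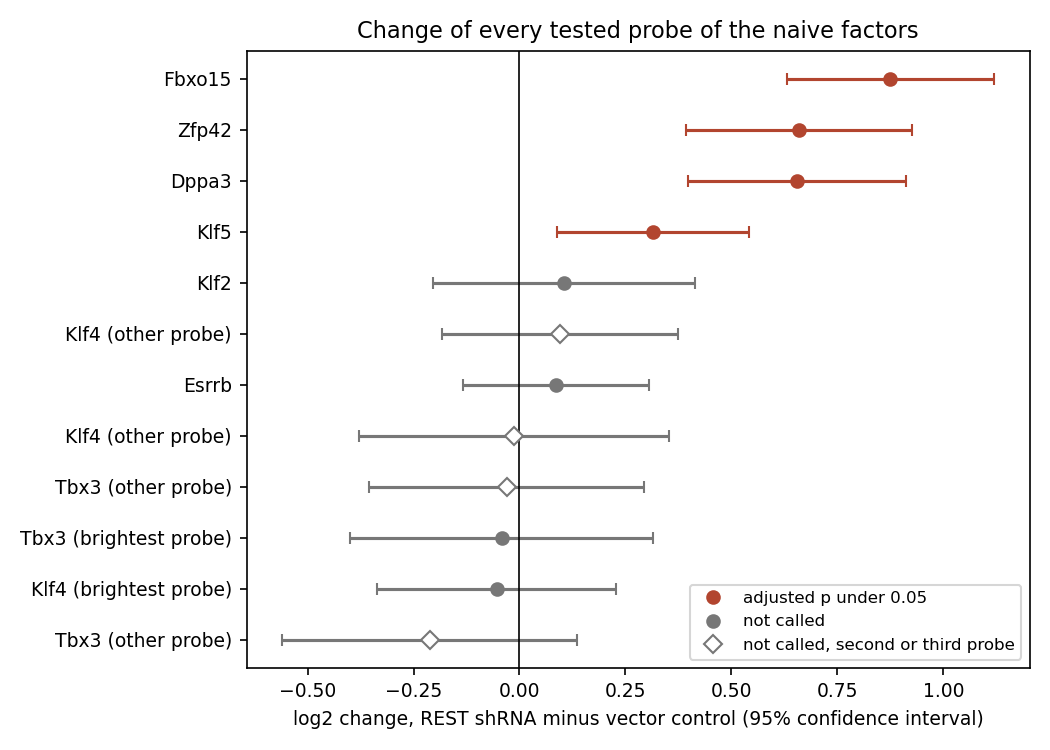
Log2 change, REST shRNA minus vector control (x axis), of all 12 tested probes of the naive genes, with the 95% confidence interval. Filled circles stand for the probe that represents a gene and open diamonds for its other probes, in red where the adjusted p was under 0.05. The 4 called probes lie between 0.31 and 0.88, and the intervals of the 8 others include 0.

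The changes of the naive genes were also set against each other within each array, where a scaling factor shared by the array cancels. Over the 28 pairs of tested genes, the difference between their log2 changes ran from 0.00, between Zfp42 and Dppa3, to 0.93, between Fbxo15 and Klf4. An exact two-sided permutation test of 3 arrays against 3 cannot go below 0.10, so no pair could have passed, whatever its values. The smallest p of that test adjusted over the 28 pairs was 0.147, and it decides nothing about the pairs.

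**Figure D3:**
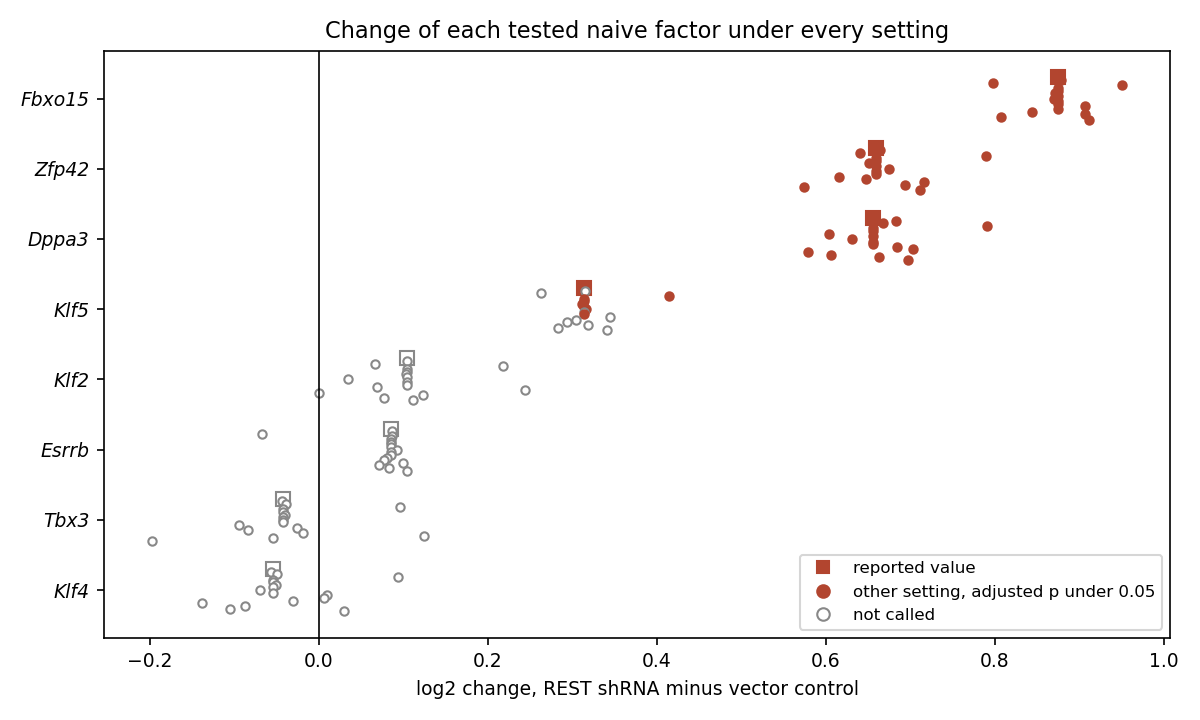
Log2 change (x axis) of each tested naive gene under the reported setting (squares) and the 16 alternatives (circles), filled in red where the adjusted p was under 0.05. Fbxo15 stays between 0.80 and 0.95, Zfp42 between 0.57 and 0.79 and Dppa3 between 0.58 and 0.79, all called, whereas Klf5 is called in some settings and the other 4 genes in none.

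Of the 3 core factors, Pou5f1 was called lower, and no test set it against the naive genes. Pou5f1, the POU factor on which all pluripotent cells depend, measured 2742.4, 2914.1 and 2748.9 in REST shRNA cells, against 4787.1, 4490.1 and 3985.6 in controls. The groups were apart in the direction opposite to Zfp42, with log2 changes of -0.63 ± 0.10 and -0.66 ± 0.12 at its 2 probes (SE, n = 3; adjusted p = 0.00362 and 0.00465). Sox2 (-0.19) and Nanog (-0.10) were not called at the probes that represent them (adjusted p = 0.404 and 0.516), and a dimmer Sox2 probe had 0.29 (0.258). Over 15 tested core and shared pluripotency genes, 2 were higher (13.3%), 1 was lower (6.67%) and 12 gave no call, with a median log2 change of -0.10. The share called higher was near the 13.9% of all tested genes. The share called lower was 1 gene and lay below their 13.1%. The 2 that rose were the corepressor Trim28 (0.44) and Dppa4 (0.49), a chromatin-associated pluripotency gene. Both calls were lost with median scaling (adjusted p = 0.0717 and 0.0502), without REST shRNA replicate 3 (0.0545 and 0.0558) and without control replicate 2 (0.0544 and 0.0538).

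Of 9 further tested genes of the naive state, 2 were higher (22.2%), 1 was lower (11.1%) and 6 gave no call (median 0.00). Among all tested genes 13.9% were higher and 13.1% lower. Gbx2, a homeobox target of STAT3, gave 1164.4, 1251 and 1542.1 in REST shRNA cells and 642.7, 449.9 and 627.1 in controls. Every knockdown array was above every control array, with a log2 change of 1.16 ± 0.15 (SE, n = 3; adjusted p = 0.00131). Dnmt3l, a cofactor of the de novo DNA methyltransferases, had 0.42 ± 0.10 (adjusted p = 0.0150, and 0.0579 with median scaling). Fgf4, the growth factor through which these cells drive their own ERK signal, had -1.44 ± 0.17 (adjusted p = 0.000873).

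In the LIF and STAT3 pathway, 1 of 13 tested genes was called higher (7.69%), 3 were lower (23.1%) and 9 gave no call (median -0.04). The shares over all tested genes were 13.9% and 13.1%, and the counts of this short list are a description only. The 1 called higher was the receptor subunit Lifr, at 54, 57.3 and 58.6 in REST shRNA cells and 13.5, 8.3 and 22.1 in controls. It was above background on all 3 knockdown arrays but on only 1 control array, so it entered the test through the group where it was high. Its log2 change ran from 0.68 with a larger offset to 1.63 without background correction, and with a stricter detection filter it was not tested and no gene of the list was higher. The AP-1 gene Junb had -0.65 ± 0.11 (adjusted p = 0.00441). Stat3 itself and its feedback inhibitor Socs3, named after their values were seen, had -0.13 and -0.04 at their brightest probes (adjusted p = 0.502 and 0.806). The probes of Stat3 disagreed, since the dimmest of its 3 was called lower (-0.46, adjusted p = 0.0167). The kinase Jak2 (-0.52) and the STAT3 inhibitor Pias3 (-0.42) were called at adjusted p = 0.0480 and 0.0437 and lost the call in 10 and 11 of the 16 alternatives. Among these, both missed it without REST shRNA replicate 2 or 3 and without control replicate 1, 2 or 3, at adjusted p-values of 0.0626 to 0.144.

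Of 11 tested Klf and Sp genes outside the naive group, 2 were higher (18.2%), 1 was lower (9.09%) and 8 gave no call (median 0.02), shares near those of all tested genes. Klf3, a repressor, had a log2 change of 0.78 (0.52 with a larger offset and 1.02 without background correction). Klf9, a hormone-responsive factor, had one of 0.56, while Klf6, a factor of the immediate early type, had -0.43. The adjusted p-values of Klf3, Klf9 and Klf6 were 0.0210, 0.0395 and 0.0313. All 3 calls were lost without REST shRNA replicate 3 (0.0724, 0.106 and 0.0998) and without control replicate 2 (0.0635, 0.0851 and 0.103). Klf3 and Klf9 missed it also without REST shRNA replicate 1 (0.0597 and 0.109), Klf3 and Klf6 without control replicate 1 (0.0701 and 0.0620), Klf6 without REST shRNA replicate 2 (0.0957) and Klf9 without control replicate 3 (0.0993). With all arrays, Klf9 missed it without background correction (0.0673), with median scaling (0.0536), without the filter (0.0724) and with array weights (0.0550). Klf6 missed it in the authors' ratios (0.151).

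The formative and primed states of the epiblast follow the naive one. Of 9 tested genes of these states, 2 were higher (22.2%), 3 lower (33.3%) and 4 without a call (median 0.02). For comparison, 13.9% of all tested genes were higher and 13.1% lower, and 9 genes are too few for more than a description. Otx2, which drives entry into the formative state, measured 724.3, 711.4 and 806.7 in REST shRNA cells, against 285.3, 222.7 and 171.6 in controls. The change was 1.64 ± 0.15 on the log2 scale (SE, n = 3; adjusted p = 0.000285), larger than that of any of the 8 naive genes. The ETS factor Etv5 had 0.59 ± 0.11 (adjusted p = 0.00627). Pou3f1, an early formative POU factor, had -1.06 ± 0.13 (adjusted p = 0.00113) and Fgf15 -0.77 ± 0.13 (adjusted p = 0.00380). The size for Fgf15, a dim probe, was -0.49 with a larger offset and -1.06 without background correction. Under a stricter detection filter Fgf15 was not tested. Fgf5, the usual marker of that stage, named after its values were seen, was above background on no array.

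The last list joined negative regulators of the naive network with ERK pathway genes. Of its 7 tested genes 2 were higher (28.6%), none was lower and 5 gave no call (median 0.21). Over all tested genes 13.9% were higher and 13.1% lower, and with so few genes listed the counts are a description only. The 2 higher genes, Dusp6 and Spry4, are feedback inhibitors induced by ERK signalling, and it is ERK signalling that favours exit from the naive state. They had log2 changes of 1.04 ± 0.11 and 1.34 ± 0.22 (SE, n = 3; adjusted p = 0.000477 and 0.00340). The 2 dimmer probes of Dusp6 had 0.44 and 0.57, and the mean of its probes 0.68, all called. Tcf7l1, a repressor of Esrrb and other naive genes in the Wnt pathway, had 0.27 and was not called (adjusted p = 0.0876; named after its value was seen).

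**Figure D4:**
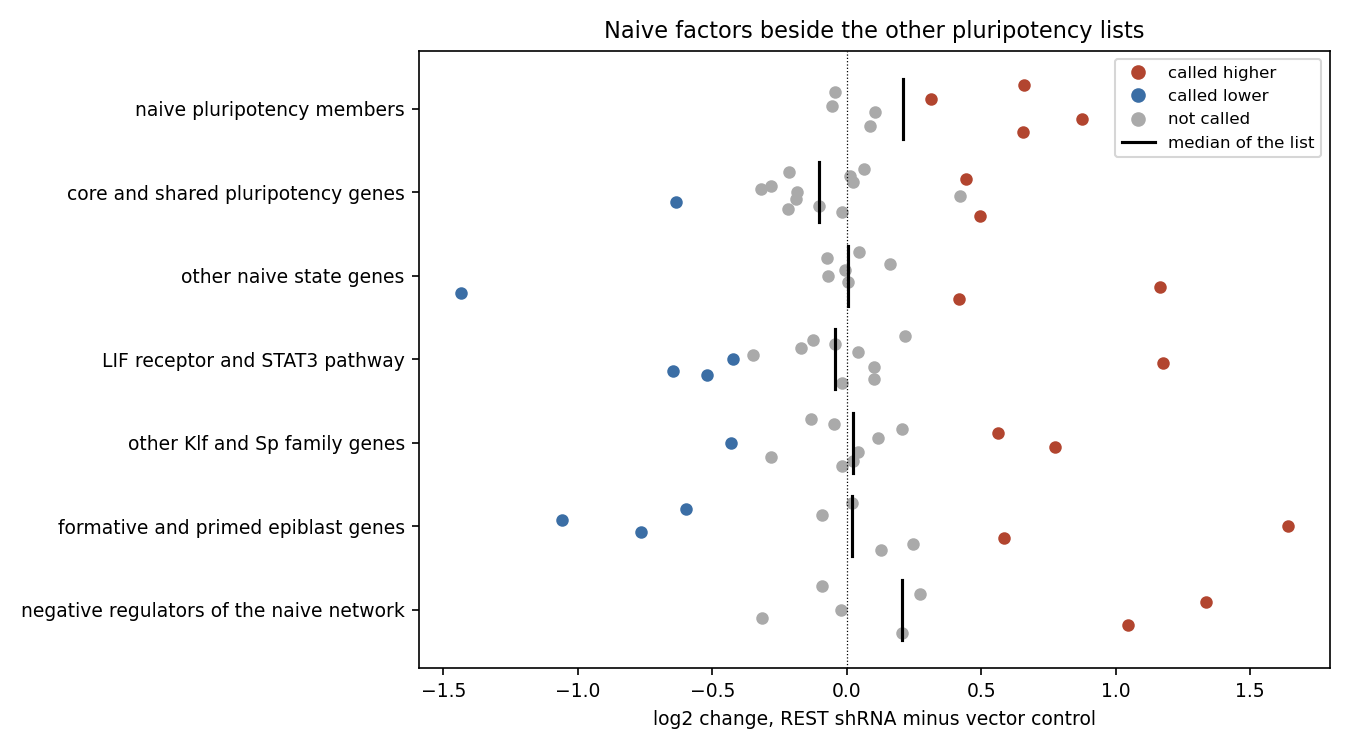
Log2 change (x axis) of each tested gene in the naive group and 6 related lists, in red where called higher, in blue where called lower and in grey where not called, with a black line at the median of each list. The naive genes hold 4 called higher and none called lower, and the 7 negative regulators also have none called lower. Over all tested genes 13.9% were higher and 13.1% lower, so with few genes in a list the counts are a description only.

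The genes nearest in pattern to Fbxo15, the riser with the largest change, were Vps53, Nfyc and Serpinf1. Likeness was the root mean square difference of log2 values over the 6 arrays, each gene centred on its own mean, against 8739 other tested genes. The differences were 0.022, 0.050 and 0.051. No naive gene fell, so no such comparison was made for a fall.

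Markers of other cell types moved beside the naive readouts, and their part in these results was not tested. Each of these lists had few tested genes, and over all tested genes 13.9% rose and 13.1% fell. The sums below are of intensities not normalized between arrays, so the brightest genes of a list weigh most in them. For the 2-cell-like state, a rare state of these cultures, 4 of 5 tested genes rose and none fell, among them Zscan4c (log2 change 1.26; named after its values were seen), which has near-identical copies that its probe may not tell apart. Summed intensity over its 7 genes with a probe was 9605 to 11549 in REST shRNA cells and 4958 to 5945 in control cells, and Usp17l5 was above background on no array. Fibroblast markers, which feeder cells would bring, had 4 of 6 tested genes lower and none higher, with sums over 11 genes of 4611 to 5391 in REST shRNA cells and 6139 to 6737 in control cells. Col1a1, Col3a1, Dcn and Lum among them were above background on no array.

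Of 5 tested trophoblast markers 1 rose and 3 fell. Their sum over 10 genes was 6498 to 7464 in REST shRNA cells, against 3418 to 4528 in controls, and most of it came from Tfap2c, named after its values were seen, which embryonic stem cells express too. Elf5, Gata3, Hand1 and Tpbpa were above background on no array. Primitive endoderm markers had 1 higher and 1 lower of 4 tested, with sums over 10 genes of 1507 to 1571 in REST shRNA cells and 1804 to 1976 in controls. Its factors Gata4, Sox17, Sox7 and Foxa2, and Afp, were above background on no array. Of 5 tested neuronal markers 3 rose and 1 fell, with sums over 10 genes of 2945 to 3582 in REST shRNA cells and 2205 to 2516 in controls, while Tubb3, Dcx, Snap25, Syt1 and Gap43 stayed at background. The embryonic stem cell markers summed to 64974 to 70557 in REST shRNA cells and to 72435 to 80344 in controls. Of these 8 genes, 1 was higher and 1 lower. Most of each sum came from 1 probe of Dppa5a, a gene named after its values were seen. That probe gave 47861.3, 53546.9 and 49619.1 in REST shRNA cells, against 60086.5, 65170.2 and 56384.5 in controls. It was not called (log2 change -0.17, adjusted p = 0.250), nor was the probe that represents Dppa5a (-0.02, adjusted p = 0.914).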

How the data were processed

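In the authors' deposited table each probe has a linear intensity on each array, relative to the array's background (25.3% to 26.3% of values lay below 0) and not normalized between arrays. It also holds a deposited detection score, called a p-value in its header. The values show that it rises with intensity, and the detection p was therefore taken as 1 minus it. In a second deposited table each value is a linear ratio to a reference that the sources used here do not give.

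Background correction used limma 3.58.1 (R 4.3.3; normal-exponential model, offset 16), followed by quantile normalization and log2. A probe entered the limma fit if its detection p was below 0.05 on 3 or more of the 6 arrays (12406 of 25697 probes), and the fit held the group alone. All p-values were adjusted over all tested probes by the Benjamini-Hochberg method, and an adjusted p under 0.05 is a call. Changes are REST shRNA minus control. A gene was represented by its brightest tested probe, and levels were not compared between probes. Of all probes, 23978 had 1 gene symbol, none several and 1719 none. Probe sequences and genome positions were not used here.

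The members, the lists and the tests were chosen with earlier results of these data known. Named genes were all members, Pou5f1, Sox2 and Nanog, at most the 4 called genes with the smallest p and groups apart from each other list, and the 3 nearest to the largest riser. Any other gene is marked as named after its values were seen, apart from markers listed as at background. The fit was tested only on simulated data with independent noise and a fixed size of change, which does not test the calls above. Same-numbered arrays of the 2 groups deviated together at -0.06, 0.03 and 0.04, so numbers were not taken as pairs. The number of arrays limits the precision.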

Additional observations from a re-analysis of the deposited data

How the results depend on the processing

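Fbxo15, Zfp42 and Dppa3 were called higher in all 16 alternatives, with highest adjusted p-values of 0.00578, 0.0189 and 0.0176, and no naive gene was called lower in any. Klf5 lost its call in 9, so 3 or 4 naive genes were higher, and their median change ranged from 0.10 without the filter, where Nr0b1 joined, to 0.32 in the authors' ratios. With the replicate number as a block, 3 naive genes were higher, as were 1417 of all tested probes, and 1463 probes were lower. The signs of Klf4, Tbx3, Esrrb and Klf2 were the same as reported in 12, 14, 15 and 15 of the 16, never called.

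Over all tested probes 1590 were higher and 1619 lower. The authors' ratios gave 2118 and 907, and the 6 fits without 1 array gave 1030 to 1356 higher, 1006 to 1365 lower. Fewest were called without REST shRNA replicate 3 (1030 and 1007) and without control replicate 2 (1032 and 1006), and the cause was not tested. Some list counts moved by more than 1.5 times: core genes higher 0 to 3 (reported 2) and lower 1 to 2 (1), further naive genes higher 1 to 2 (2), LIF pathway higher 0 to 1 (1) and lower 1 to 4 (3), Klf and Sp genes higher 0 to 2 (2) and lower 0 to 2 (1), and negative regulators lower 0 to 1 (0). Dim probes such as those of Nr0b1 and Rest allow no statement on a change.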
